A study of Mus musculus with 6 samples.

Results

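The cytosolic ribosome is built from ribosomal RNA and a large set of proteins, named Rpl for the large subunit and Rps for the small subunit. Cells make these proteins in matched amounts from mRNAs that are among the most abundant of the cytoplasm. Most of the mRNAs begin with a run of C and T at the cap, the 5' terminal oligopyrimidine (TOP) tract, through which mTOR and the RNA-binding protein LARP1 control their translation. Myc raises the transcription of ribosomal protein genes, and several free ribosomal proteins, Rpl5 and Rpl11 among them, bind the p53 inhibitor Mdm2. Tumor growth draws on this machinery.

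The genes described here are those of the deposited table whose symbol begins with Rpl or Rps and a digit, together with Rplp0, Rplp1, Rplp2 and Rpsa. S6 kinase names, the binding protein Rps19bp1 and pseudogene symbols were left out. This gave 85 genes out of 13730 in the table, 52 of the large and 33 of the small subunit. Rpl38 was not analysed here. The 85 genes held 9 paralogs or copies with a parent gene in the same list.

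The tumors were grown from C0321, a mouse triple-negative breast cancer line made from an Lfng-/- mouse on the FVB background, which makes all 6 tumors models of 1 line that lacks the Notch-modifying fringe enzyme Lfng. Each tumor was started from cultured cells placed with Matrigel in the mammary fat pad of female FVB mice aged 6 to 10 weeks. From the time that a mass could be felt, 3 tumors were exposed to sulindac sulfide (SS), a cyclooxygenase inhibitor and modulator of γ-secretase, given by mouth at 60 mg/kg daily for 14 days, and 3 tumors came from control mice, given saline by the series description. The treatment text in the labels of the control samples repeats that of the treated samples, and their group was taken from the title, which reads control, as does the treatment field. The labels of the treated samples spell the agent sulindac sulfate, and the title and protocols give SS. RNA of whole tumors was measured, so that a lower level cannot be assigned to fewer cells of a type or to less RNA per cell. Labels number the tumors within a group and not the mice, and p-values measure the spread between these tumors.

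Sequencing depth was between 8468914 and 24441522 counts per tumor, and 3 counts correspond to between 0.123 and 0.354 on the counts-per-million (CPM) scale. Markers of the mesenchymal tumor list summed to between 12255 and 13976 CPM in control and between 10785 and 13134 CPM in SS, and epithelial markers to between 508 and 702 and between 493 and 612 CPM. Skeletal muscle genes, 6 of 6 detected, varied widely between tumors, with sums from 1305 to 10096 CPM in control and from 337 to 18951 CPM in SS. Erythroid genes summed to between 1890 and 3927 CPM in control and between 853 and 1934 CPM in SS, and all 5 tested had a log2 fold change below 0, with 3 below all controls in every SS tumor and a median of -1.05, where 50.2% of all genes were below 0 and 6.4% below all controls. Adipocyte markers summed to between 0.0410 and 47.3 CPM in control and between 0.676 and 19.7 CPM in SS. Of the B cell list, 2 of 6 genes were in the table, with sums of 15.2, 1.23 and 0.123 CPM in control and 0 in every SS tumor. T cell, macrophage, neutrophil, endothelial and fibroblast sums overlapped between groups. Of 4 tested endothelial genes, 3 had a log2 fold change above 0 and 1, Vwf, lay above all controls in every SS tumor. Of all genes, 49.8% were above 0 and 6.51% above all controls. Dendritic cell genes summed to between 52.1 and 82.9 CPM in control and between 94.0 and 179 CPM in SS. Most of that last sum was Itgax, with 66.9, 49.4 and 50.9 CPM in control and 173, 131 and 89.6 CPM in SS, and 2 of the 3 tested genes of the list had a log2 fold change below 0. The part of these other cells in the results below was not tested.

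The annotated start sites show what many of these genes share. Of the 85 genes, 65 had a RefSeq promoter sequence on GRCm38.p6, and 31 of them (47.7%) had a run of at least 5 C or T that held the annotated first base or began within 5 bases of it, against 27% of 27025 genes in the same table. The windows below run from 15 bases before the annotated start to 15 bases from it onwards, 5' to 3', with that run in capitals. They are shown for members with a low p in the comparison of SS with control (Rps18, Rps24, Rpsa, Rpl37 and Rpl24), for Rplp0 as an abundant member, for Rpl14 as the member above all controls, for Rps6 as the S6 kinase substrate and for Rpl27a, chosen after its sequence was seen, for its long run.
Rps18 (chr17:33955651-33955680, minus strand): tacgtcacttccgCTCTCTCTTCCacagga
Rps24 (chr14:24490663-24490692, plus strand): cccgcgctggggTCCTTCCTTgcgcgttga
Rps6 (chr4:86857353-86857382, minus strand): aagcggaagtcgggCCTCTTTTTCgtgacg
Rpl27a (chr7:109519180-109519209, plus strand): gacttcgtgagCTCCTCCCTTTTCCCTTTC
Rpl14 (chr9:120571502-120571531, plus strand): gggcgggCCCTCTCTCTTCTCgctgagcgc
Rpsa (chr9:120127751-120127780, plus strand): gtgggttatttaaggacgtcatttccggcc
Rplp0 (chr5:115559452-115559481, plus strand): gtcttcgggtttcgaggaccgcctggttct
Rpl37 (chr15:5116598-5116627, plus strand): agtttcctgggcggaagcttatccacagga
Rpl24 (chr16:55966260-55966289, plus strand): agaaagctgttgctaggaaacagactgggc

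In the 300 bases around the start, searched on both strands and with overlaps between motifs allowed, the ETS core CCGGAA was found in 35 of 65 members (53.8%) and in 16.7% of all genes with a promoter sequence. The YY1 core ATGGCG was found in 19 members (29.2%) against 10.2% of all genes, and the GC box GGGCGG in 38 members (58.5%) against 38.2%. The TATA box TATAAA was found in 8 members (12.3%) and in 15.7% of all genes. These letters describe the annotated windows and no binding was measured.

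Levels differed widely within the family. Per kb of transcript, the middle 50% of the 85 genes lay between 33.6 and 512 CPM per kb, around a median of 167. Among the highest levels were those of Rpl32, with a mean of 5528 CPM per kb over the 6 tumors, and Rplp0, the stalk base protein, with 2651. Per kb of coding sequence Rpl32 had 7057 and Rplp0 3786, and Rpsa, which also serves as the laminin receptor, had 3423. Among tested genes the lowest were Rpl3l, the muscle form of Rpl3, with 1.06 CPM per kb, Rpl29 with 2.97 and Rps27l with 3.66. The upper bound of that middle range was 15.3 times the lower, although the ribosome holds most of its proteins in equal numbers. The range also depends on the transcript length taken. Rps20, with 3706 bases of transcript, had 63.5 CPM per kb of transcript and 660 per kb of coding sequence. Rps15a, with 5179 bases of transcript, had 12.3 and 163. How reads that match several genes were counted is not given in the sources used here. The part of lengths and of read counting in this range was not tested.

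**Figure D1:**
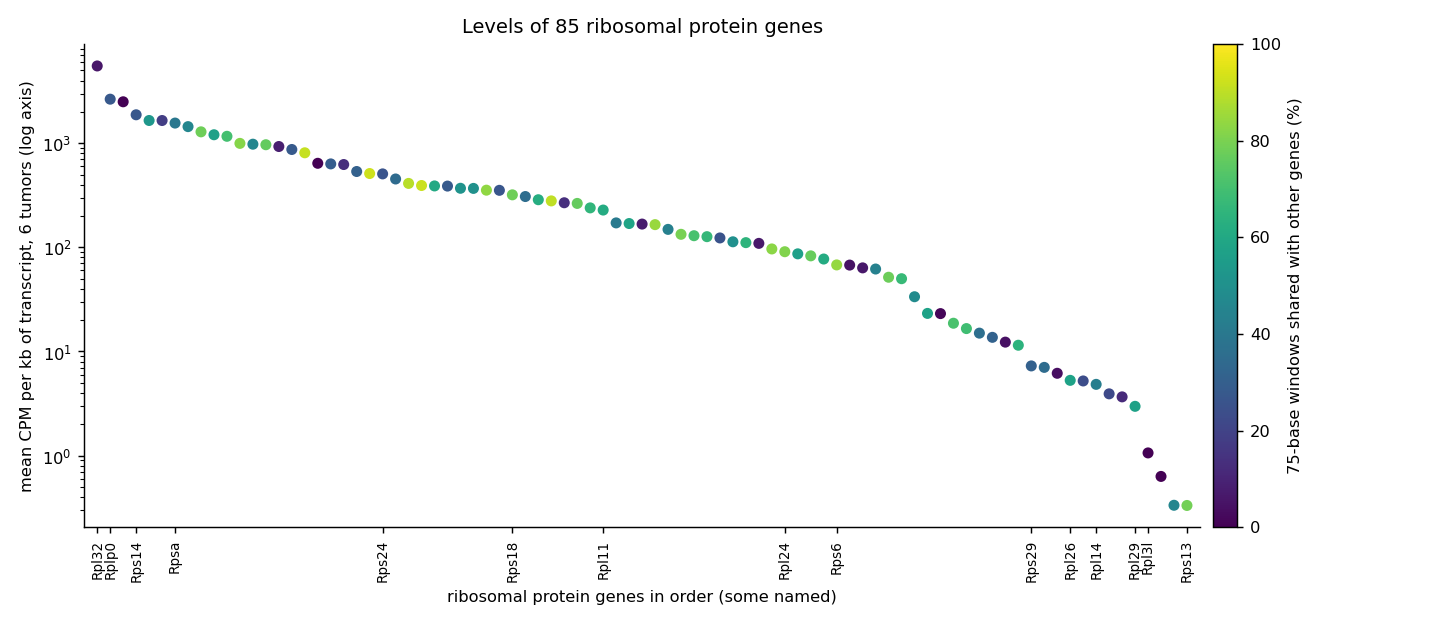
Mean CPM per kb of transcript over 6 tumors (vertical log axis) for each of the 85 ribosomal protein genes, ordered by level and with a few named, with the point color giving the share of 75-base windows of the transcript that also occur in transcripts of other genes. Rpl32 stands at 5528 and Rps13 at 0.332 CPM per kb, and strongly shared and little shared transcripts occur along the whole range.

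Ribosomal protein genes have many processed pseudogenes, and 81 of the 85 genes had at least 1 stretch of 75 bases, the length of a read, that also occurs in a transcript of another gene. The median share of such stretches was 47.9%. Rps3, Rpl3l and Rpl39l were among the genes that shared none. Across the 85 genes, the level per kb had a Spearman correlation of 0.06 with the share of windows shared, as a description over genes of the same libraries.

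For some genes a near-identical pseudogene symbol held far more counts than the gene itself, and how reads were assigned between them was not tested. Rplp2, an acidic stalk protein that forms a dimer with Rplp1, was listed at only 3.48, 4.33 and 6.2 CPM in control and 6.82, 5.25 and 4.06 CPM in SS. The symbol Rplp2-ps1, a copy at chr12:75630925-75631750 inside Wdr89, held 1035, 932 and 992 CPM in control and 1010, 997 and 1052 CPM in SS. The coding sequence of Rplp2 and the Wdr89 transcript that holds the copy differed at 2 of 345 positions, with identical runs of up to 180 bases. Together, the 2 symbols had 991 ± 51.7 CPM in control and 1025 ± 27.9 CPM in SS (SD, n = 3 each), so the groups overlapped.

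Rpl14 and Rpl14-ps1 formed a second such pair, with 644 of 651 coding positions identical. A stretch of 60 bases (coding positions 364 to 423) is shown because its capitals, the positions at which the pair differ, are all that sets the 2 symbols apart there.
Rpl14: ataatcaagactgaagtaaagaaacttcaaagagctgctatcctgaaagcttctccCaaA
Rpl14-ps1: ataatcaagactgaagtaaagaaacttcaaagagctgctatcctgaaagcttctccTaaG
Rpl14 had 1.26, 3.24 and 4.02 CPM in control and 4.35, 10.6 and 5.75 CPM in SS. It was the only member above all controls in every SS tumor, with a log2 fold change of 1.25 ± 0.51 (SE). Its adjusted p was 0.771 (edgeR). Rpl14-ps1 ran the other way, with 161, 168 and 196 CPM in control and 144, 138 and 143 CPM in SS. Summed, the pair had 177 ± 19.9 CPM in control and 149 ± 0.287 CPM in SS, with every SS tumor below every control.

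Rpl37 and Rpl37rt, a transcribed copy at chr5:115102922-115110269, differed at 1 of 291 coding positions. The stretch from coding position 190 to 249 is printed because it holds that position, in capitals.
Rpl37: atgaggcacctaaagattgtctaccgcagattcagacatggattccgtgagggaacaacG
Rpl37rt: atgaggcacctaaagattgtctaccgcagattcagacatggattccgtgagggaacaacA
Their longest identical run was 248 bases, longer than a read, and how reads were assigned between the 2 symbols was not tested. The 2 may thus not be separate measurements. As listed, the copy had the higher level, with 523, 546 and 605 CPM in control and 453, 450 and 455 CPM in SS. Rpl37 had 118, 110 and 115 CPM in control and 92.8, 89.9 and 92.0 CPM in SS. Both were lower in every SS tumor than in every control, by log2 fold changes of -0.30 ± 0.09 and -0.32 ± 0.09. Their sum was 672 ± 42.4 CPM in control and 544 ± 4.09 CPM in SS.

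Rps27 and the entry labelled Rps27rt are both listed at chr3:90212667 on the minus strand. The annotated transcripts paired with them have coding sequences that are identical over 252 bases, so these 2 entries cannot be taken as separate measurements. RefSeq places Rps27rt on another chromosome, and the entry may not measure that gene, although the rule by symbol counts it as a member and as a tested copy. Rps27 had 82.1, 74.0 and 109 CPM in control and 94.9, 96.6 and 91.4 CPM in SS, and Rps27rt 94.0, 85.3 and 125 against 109, 108 and 105 CPM. The p53-induced paralog Rps27l differs from Rps27 at 60 of 252 coding positions, with identical runs of at most 11 bases, and reads of the pair can be told apart. Coding positions 4 to 63 show how dense the differences (capitals) are.
Rps27: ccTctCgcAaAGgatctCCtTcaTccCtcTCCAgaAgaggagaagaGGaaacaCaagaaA
Rps27l: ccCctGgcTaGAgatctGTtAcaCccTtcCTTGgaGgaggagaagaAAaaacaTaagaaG
Rps27l had 2.77, 1.57 and 1.23 CPM in control and 1.89, 1.31 and 2.2 CPM in SS, within the spread of the controls.

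The main question put to these genes was how their mRNA levels in SS-treated tumors compared with control tumors. Ribosomal protein mRNAs were on the whole slightly less abundant in SS tumors. The summed share of all counts was 3.66%, 3.54% and 3.97% in the controls and 3.30%, 3.24% and 3.38% in the SS tumors. Its mean was 3.72 ± 0.221% in control and 3.31 ± 0.0715% in SS (SD, n = 3 each), lower by 11.2% of the control value, and the groups did not overlap. The difference of SS minus control was -0.418 percentage points, and -0.296 without control 3.

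For the 70 members with at least 10 CPM in every tumor, each tumor's level was set against the gene's mean over the 6 tumors on the log2 scale. The median over these members was 0.03, 0.05 and 0.15 in the controls and -0.08, -0.11 and -0.05 in the SS tumors. Control 3 had the highest level of the 6 tumors for 42 of the 70 genes, and SS 2, the library with the fewest counts, had the lowest for 25. With all libraries thinned to the smallest total, the difference in the share of counts was -0.420 percentage points.

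**Figure D2:**
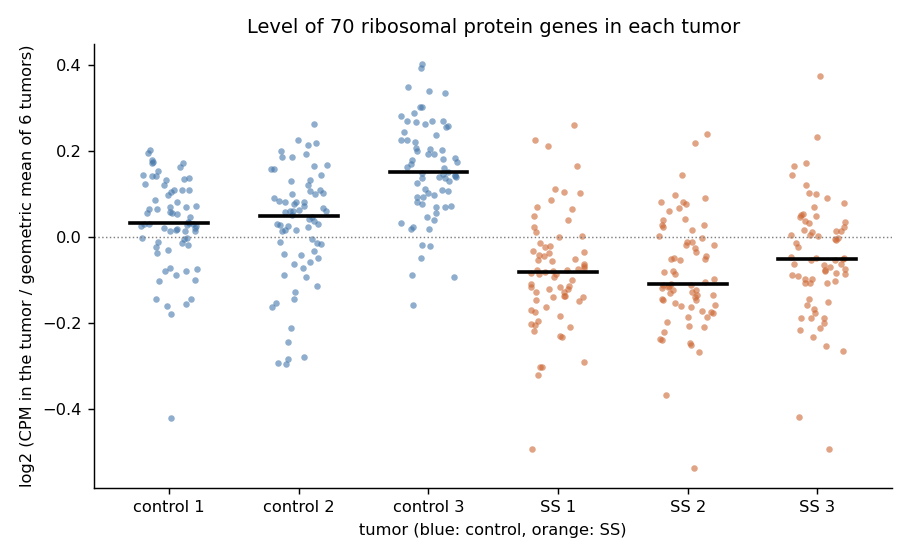
Each point is 1 of 70 ribosomal protein genes in 1 tumor, as log2 of its CPM over the geometric mean of the 6 tumors (vertical axis), for control tumors (blue) and SS tumors (orange), with black lines at the medians. The medians of the 3 controls lie above 0 and those of the 3 SS tumors below 0, with control 3 the highest at 0.15.

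Gene by gene, 82 of the 85 members passed the filter on low counts and were tested among 10902 genes. In 28 of them (34.1%) every SS tumor was below every control, where 6.4% of all genes tested did so, and in 1, Rpl14, every SS tumor was above, against 6.51% of all genes. An unadjusted p under 0.05 with a lower level in SS was found for 16 members, against 3.16% of all genes tested, and with a higher level for 1, against 3.19%. Of the 82, 67 had a log2 fold change below 0, against 50.2% of all genes, and 15 above 0, against 49.8%. None passed the adjusted p of 0.05 in edgeR's quasi-likelihood test, where 0.0% of all genes did and 693 of the 10902 had an unadjusted p under 0.05. DESeq2 called 35 genes (0.321%), none of them a member, with 18 members lower at an unadjusted p under 0.05, against 3.26% of all genes. The lowest adjusted p of a member was 0.771 with edgeR and 0.187 with DESeq2. Without control 3 the members lower at an unadjusted p under 0.05 numbered 7, without SS 1 they numbered 9 and without SS 2 they numbered 8, against 2.12%, 2.43% and 2.79% of all genes in those fits. The count of members with every SS tumor below every control was 28 without control 3, against 10.4% of all genes in that fit.

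The median log2 fold change of the 82 members was -0.13, or 8.75% below control, where the median over all genes was 0.00. The middle 50% of members lay between -0.23 and -0.03, and the median SE of a member was 0.12, so the typical difference was about as large as its own error. Within the 28 members without overlap, the log2 fold change ran from -1.13 to -0.11, with a median of -0.24. For the 46 members at 100 CPM or more, the coefficient of variation between tumors had a median of 6.39% in control and 5.16% in SS.

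**Figure D3:**
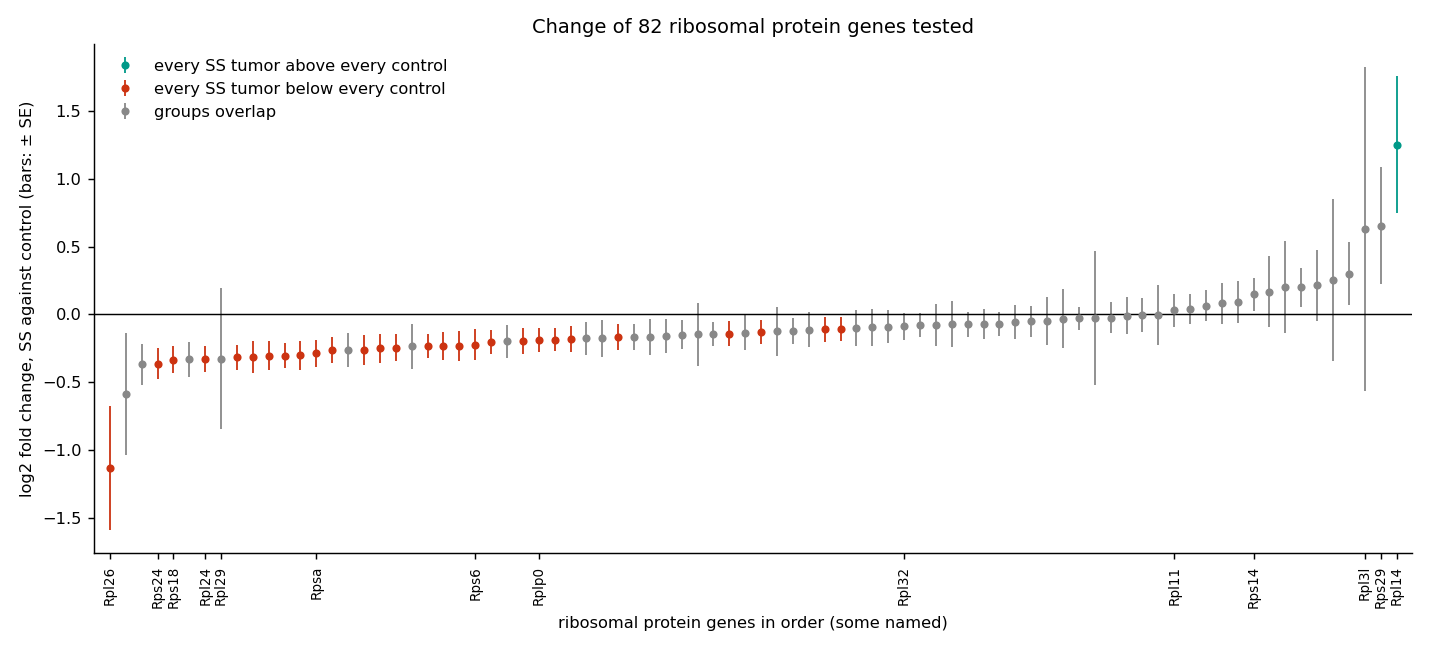
Log2 fold change of SS against control (vertical axis, bars ± SE) for the 82 ribosomal protein genes tested, in order of size and with a few named, colored by whether the 3 SS tumors lay below all controls (red, 28 genes), above all (green, Rpl14) or overlapped with them (grey, 53 genes). The points run from Rpl26 at -1.13 to Rpl14 at 1.25, and both ends hold genes with few counts and long bars.

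Among the small-subunit members, the lowest p was that of Rps18, a protein of the head of the subunit. Rps18 had 199, 188 and 212 CPM in control and 167, 160 and 148 CPM in SS. All 3 SS tumors were below the lowest control, with a log2 fold change of -0.33 ± 0.10 (adjusted p = 0.771, edgeR). Rps24, a protein mutated in Diamond-Blackfan anemia, had 715, 678 and 870 CPM in control and 575, 588 and 594 CPM in SS. The SS tumors were close to each other and the controls spread upwards, with a log2 fold change of -0.36 ± 0.11.

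Rpsa (chr9:120127766-120132370), among the most abundant members, had 3165, 3142 and 3678 CPM in control and 2754, 2606 and 2831 CPM in SS. All SS tumors were below the lowest control, and the log2 fold change was -0.29 ± 0.10. Rps3a1 and Rps20 were likewise below all controls in every SS tumor, with log2 fold changes of -0.30 ± 0.11 and -0.23 ± 0.09. Rps6, the substrate of the S6 kinases, had 62.0, 66.5 and 63.9 CPM in control and 61.3, 51.4 and 52.1 CPM in SS. Its groups were separate by a narrow margin.

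On the large subunit, Rpl24, a protein near the subunit interface, had 66.9, 68.1 and 70.3 CPM in control and 52.8, 54.0 and 56.7 CPM in SS. Both groups were narrow and apart, and the log2 fold change was -0.33 ± 0.10 (adjusted p = 0.771, edgeR). The stalk proteins, which bring the elongation factors to the ribosome, were separate between groups for Rplp0 and Rplp1. Rplp0 (chr5:115559467-115563730) had 3639, 3800 and 4075 CPM in control and 3287, 3331 and 3471 CPM in SS, a log2 fold change of -0.19 ± 0.09. Rplp1 had 734, 764 and 861 CPM in control and 662, 625 and 680 CPM in SS, a log2 fold change of -0.26 ± 0.10. Rpl4, which lines the exit tunnel and shares only 8.47% of its 75-base windows with other genes, had 1440, 1538 and 1679 CPM in control and 1263, 1293 and 1374 CPM in SS.

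**Figure D4:**
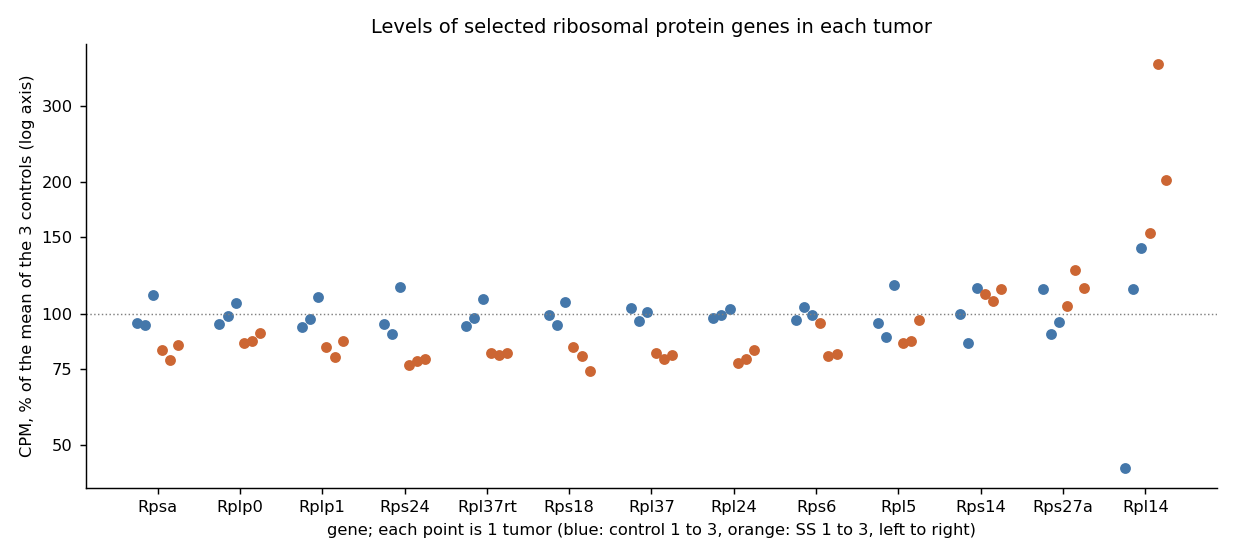
CPM of 13 ribosomal protein genes in each tumor, as a percent of the mean of the 3 controls (vertical log axis), with control tumors in blue and SS tumors in orange. From Rpsa to Rps6 every SS tumor lies below every control, Rpl5, Rps14 and Rps27a overlap, and Rpl14 lies above with values spread several-fold.

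Other members did not share the pattern. Rps14, lost in the 5q- form of myelodysplasia, had 1062, 911 and 1217 CPM in control and 1184, 1138 and 1214 CPM in SS, and the SS tumors lay inside the range of the controls (log2 fold change 0.15 ± 0.12). Rps27a, which is made as a fusion with ubiquitin, had 42.1, 33.2 and 35.2 CPM in control and 38.3, 46.4 and 42.2 CPM in SS. Rps19, the gene most often mutated in Diamond-Blackfan anemia, had 67.7, 69.2 and 75.1 CPM in control and 76.8, 65.5 and 75.5 CPM in SS.

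The 2 members best known for binding Mdm2 overlapped between groups as well. Rpl5 had 1052, 976 and 1283 CPM in control and 948, 956 and 1067 CPM in SS (log2 fold change -0.16 ± 0.12). Rpl11 had 198, 187 and 178 CPM in control and 167, 221 and 190 CPM in SS (log2 fold change 0.03 ± 0.12). Rpl22 had 50.7, 46.0 and 50.4 CPM in control against 45.1, 40.1 and 52.1 CPM, and its paralog Rpl22l1 43.2, 55.6 and 49.4 against 40.4, 47.1 and 43.7 CPM. Both overlapped.

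Among members with few counts, Rpl30, named after its values were seen, had 5.69, 14.6 and 8.0 CPM in control and 6.10, 5.25 and 22.5 CPM in SS, with an SE of 0.60. Rps29 had 1.26, 2.36 and 2.95 CPM in control and 3.99, 2.62 and 3.80 CPM in SS. Rpl21 had 5.45, 7.47 and 6.61 against 8.35, 7.03 and 8.70 CPM, and Rpl41, which encodes the shortest of these proteins, 5.14, 6.54 and 6.48 against 5.52, 8.47 and 7.18 CPM. None of these 4 was separate between groups. Rpl26, which binds p53 mRNA, had 5.30, 4.18 and 2.01 CPM in control and 1.89, 1.43 and 1.86 CPM in SS, from between 12 and 85 counts per tumor. The 3 members that did not pass the filter had few counts, with Rps13 between 0.0821 and 0.581 CPM (1 to 8 counts), Rps28 between 0 and 0.363 CPM (0 to 5 counts) and Rpl39l between 0 and 1.07 CPM (0 to 26 counts). Rps13 shared 78.6% of its 75-base windows with other genes, Rps28 45.9% and Rpl39l 0%. The part of read assignment in these low counts was not tested.

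Members of both subunits were among the 28. Of 51 tested large-subunit genes, 15 had every SS tumor below every control and 1 above, against 6.4% and 6.51% of all genes, with a median log2 fold change of -0.13. Of 31 small-subunit genes, 13 were below and 0 above, with a median of -0.13. The difference between the subunits was not tested. Among the 8 tested paralogs and copies, 1, Rpl37rt, was below all controls, which is near the share of all genes, and their median was -0.04. Rpl36al had 39.9, 46.4 and 38 CPM in control and 38.5, 41.7 and 39.2 CPM in SS, and Rpl36a 69.9, 71.2 and 105 against 81.3, 73.9 and 78.3 CPM. Rpl7l1 had 11.9, 18.2 and 18.1 against 18.6, 15.7 and 13.9 CPM, and Rpl7 204, 208 and 202 against 196, 182 and 206 CPM.

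Rpl32, the highest member per kb, had 2778, 2907 and 3148 CPM in control against 2633, 2642 and 3040 CPM, and Rpl32l, which differs from it at 17 of 405 coding positions, 243, 259 and 258 against 269, 209 and 257 CPM. Rpl39 had 106, 93.3 and 126 against 100.4, 91.0 and 98.3 CPM. Rpl3 was lower in every SS tumor, with 527, 487 and 515 against 450, 441 and 452 CPM, while Rpl3l ranged from 0 to 3.58 CPM with no order between groups. Of the 17 tested genes mutated in Diamond-Blackfan anemia, 5 were below all controls in every SS tumor, against 6.4% of all genes, with a median log2 fold change of -0.08.

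Level and read placement were set beside the pattern. Of 46 members at 100 CPM or more, 22 had every SS tumor below every control and 0 above, and the median log2 fold change was -0.15. Other genes at that level numbered 1609, with 8.83% below and a median of -0.02. Of those, 92 had transcripts under 1 kb, and 3 of the 92 were below all controls, with a median log2 fold change of 0.17. Of 25 members between 10 and 100 CPM, 5 were below and 0 above, and of 11 tested members under 10 CPM, 1 was below and 1 above, near the 6.4% and 6.51% of all genes. Among the 18 tested members that share under 25% of their 75-base windows, 4 were below and 0 above, with a median of -0.11, among the 33 between 25% and 60%, 12 were below and 1 above, with a median of -0.14, and among the 31 that share 60% or more, 12 were below and 0 above, with a median of -0.15. Rps3, with no shared window, had 1246, 1164 and 1358 CPM in control and 1177, 1202 and 1203 CPM in SS, and its groups overlapped.

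**Figure D5:**
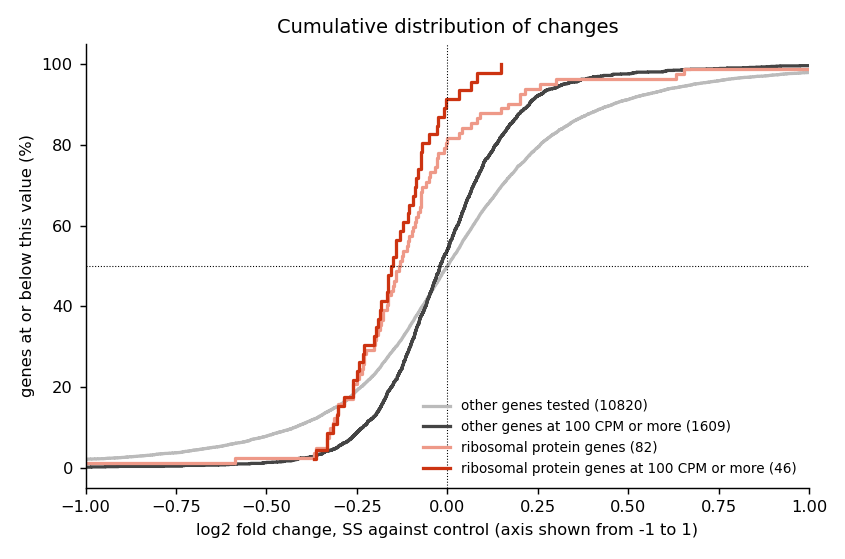
Percent of genes (vertical axis) with a log2 fold change of SS against control at or below the value on the horizontal axis, shown from -1 to 1, for ribosomal protein genes (light red, 82 tested), those at 100 CPM or more (red, 46), other genes tested (light grey) and other genes at 100 CPM or more (dark grey, 1609). The red curves cross 50% at -0.13 and -0.15 and the dark grey curve at -0.02.

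Genes with and without an annotated pyrimidine run at the start were both among the 28. Of 30 tested members with the run, as in Rps18, Rps24 and Rps6, 7 were below all controls in every SS tumor, against 6.4% of all genes, with a median log2 fold change of -0.11. Of 32 without it in the annotated window, as in Rpsa, Rplp0, Rpl37 and Rpl24, 15 were below, with a median of -0.15. The difference between the 2 sets was not tested. No start site was measured here, so a window without the run does not show that an mRNA lacks a TOP tract.

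The 13 members with several transcripts varied in how steady the estimated shares were between tumors. For Rps24, the longest form made up 76.6%, 74.1% and 67.6% of the gene's estimated counts in control and 77.3%, 74.2% and 77.9% in SS. For Rpl19, the main transcript held 68.4 ± 1.5% in control and 68.1 ± 1.19% in SS (SD, n = 3 each). The 3 Rpl31 transcripts varied more. One form had 25.5 ± 8.09% in control and 11.3 ± 3.25% in SS, with every SS tumor lower, and the form listed last had 23.1%, 29.6% and 41% in control and 33.1%, 67.7% and 55.9% in SS, and the groups overlapped.

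The genes around the ribosome were described from lists of known function. Fau, which encodes a small-subunit protein fused to a ubiquitin-like domain, and Rack1, the scaffold on the small subunit, overlapped between groups, with log2 fold changes of -0.15 ± 0.11 and -0.09 ± 0.09. Of 20 further mRNAs with a known TOP tract, which include Fau, Rack1 and 10 of the translation factors, 18 had a log2 fold change below 0, and 8 had every SS tumor below every control and 0 above, where 6.4% of all genes were below and 6.51% above. Their median was -0.18. Naca, the nascent chain complex subunit that binds at the exit tunnel, had 154, 138 and 155 CPM in control and 109, 106 and 122 CPM in SS, a log2 fold change of -0.40 ± 0.10 (adjusted p = 0.760, edgeR).

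Of 38 translation factors, 11 were below all controls in every SS tumor and 2 above, against the same 6.4% and 6.51% of all genes, with a median log2 fold change of -0.11. Eef1a1, which carries aminoacyl-tRNA to the ribosome, had 7783, 8213 and 9676 CPM in control and 7129, 6870 and 7882 CPM in SS, and Pabpc1, the poly(A)-binding protein, 9888, 11022 and 13048 against 8920, 9125 and 9936 CPM. Each overlapped through 1 pair of tumors. Eef2, the translocase, had 1990, 1973 and 2308 against 1661, 1843 and 1882 CPM and did not overlap. Eif3f was below all controls and Eif1ax above, with log2 fold changes of -0.26 ± 0.10 and 0.32 ± 0.14. Tpt1 had 14.5, 14.3 and 19 against 15, 13.6 and 13.4 CPM.

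Of 38 tested ribosome biogenesis genes, 9 were below all controls in every SS tumor and 0 above, against 6.4% and 6.51% of all genes, with a median log2 fold change of -0.15. That median was -0.084 without control 3 and -0.088 without SS 3. Npm1, a nucleolar chaperone, had 208, 240 and 247 CPM in control and 199, 181 and 183 CPM in SS. Ncl was separate by a narrow margin, with 473, 495 and 577 against 470, 465 and 464 CPM, and Fbl, the rRNA 2'-O-methyltransferase, overlapped at 16, 15.1 and 13.3 against 16.3, 14.4 and 15.5 CPM. The biogenesis list had 23 members with a log2 fold change below 0 and 15 above, where 50.2% of all genes were below 0.

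For RNA polymerase I, 1 of 10 tested genes, Polr1d, was below all controls and 1, Ubtf, above, near the 6.4% and 6.51% of all genes, with a median of -0.02, which was -0.13 without control 2 and -0.096 without SS 2. Rn45s, the ribosomal RNA precursor, which is not polyadenylated, had 127, 90.7 and 89.7 CPM in control and 195, 242 and 187 CPM in SS in these poly(A)-selected libraries, a log2 fold change of 1.02 ± 0.17 (adjusted p = 0.679, edgeR), while DESeq2 gave it an adjusted p of 4.80e-05. The direction of Rn45s was thus opposite to that of the ribosomal protein mRNAs in the same tumors. It was listed with the snoRNA host genes, of which 4 of 14 names were in the table. Snhg8 was tested and overlapped, and Gas5 was between 0 and 0.369 CPM.

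Among 26 tested regulators around Myc and mTOR, 3 were below all controls in every SS tumor and 4 above, against 6.4% and 6.51% of all genes, with a median log2 fold change of -0.01, and of -0.03 to 0.02 with each tumor left out. Myc had 41.5, 44.3 and 49.2 CPM in control and 32.9, 39.9 and 36 CPM in SS, a log2 fold change of -0.31 ± 0.13 (adjusted p = 0.771, edgeR). Deptor, an inhibitory mTOR partner, had 29.2, 23.9 and 24.9 against 31.8, 35.8 and 38.8 CPM, and Eif4ebp1, the translation repressor that mTOR phosphorylates, 118, 124 and 167 against 97.2, 84.5 and 118 CPM. Mtor overlapped between groups, and Larp1 was below all controls by a narrow margin, with 242, 241 and 289 against 240, 221 and 223 CPM. None of 10 p53 pathway genes joined to ribosomal stress was separate between groups, and their median was 0.13. Bbc3, which encodes PUMA, had 2.29, 2.51 and 3.20 against 5.23, 4.89 and 2.45 CPM, and Sesn1 21.5, 19.8 and 14.2 against 17.4, 13.4 and 14.8 CPM.

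The names left out of the family by their function, S6 kinases and the Rps19-binding protein, had 8 tested members, 0 below all controls and 2 above, against 6.4% and 6.51% of all genes, with a median of 0.19. One of these 2, Rps6kb2, is also counted among the Myc and mTOR regulators. Rps6kb2, an S6 kinase, had 3.72, 6.24 and 4.56 CPM in control and 7.91, 6.80 and 9.13 CPM in SS, and Rps6kc1 37.7, 34.3 and 37.8 against 36.7, 41.6 and 17.7 CPM. The mitochondrial ribosome, whose proteins are encoded by a separate set of nuclear genes, had 47 tested genes, of which 2 (4.26%) were below all controls in every SS tumor and 1 above, where 6.4% of all genes were below and 6.51% above, with a median log2 fold change of -0.04.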

How the data were processed

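RNA of 6 C0321 tumors, 3 control and 3 SS, was sequenced as stranded, polyadenylated RNA in pairs of 75 bases. The deposited values are estimated counts, 1 row for each RefSeq transcript, which the authors left unnormalized after removing very low entries. The submitters' processing notes name CASAVA 1.8.1, Bowtie2 2.2.5, STAR 2.5.3a and mm10. The counting tool and its treatment of reads that match several genes are not given in the sources used here. Counts were summed by symbol and rounded, and 21 symbols that had turned into dates were restored. Rows for the family were then fitted within the whole table with edgeR 4.0.16 in R 4.3.3 (TMM scaling, its filter on low counts, quasi-likelihood test, two-sided, Benjamini-Hochberg adjustment over 10902 genes). The scripts were tested on simulated data. CPM values use the TMM-scaled totals, and each SE is the log2 fold change over the square root of F. Shares of counts use the unscaled totals.

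Lengths and the 75-base windows shared with other genes come from GENCODE M21 transcripts. Coding sequences were aligned with Biopython 1.88, and promoter sequences are those of RefSeq on GRCm38.p6. Coordinates of genes are those of the deposited table. "Below all controls" means that the highest SS tumor lay under the lowest control. The genes named are the stalk proteins, Rpsa, the members with the 6 smallest p in each direction, the extremes of level, the paralogs with their parents, untested members, members known from disease or Mdm2 binding, and set or lowest-p genes of the related lists. Rps3, Rps3a1, Rps20, Rpl4, Rpl19, Rpl26, Rpl27a, Rpl31, Snhg8 and the members of pairs with pseudogenes were named after their values had been seen. The members and lists were chosen with earlier results of these data known. Alternatives were other scalings (RLE, upper quartile, TMM without the family), a block on the tumor number, thinned libraries and each tumor left out. Others were filters and tests (DESeq2 1.42.0, limma-voom from limma 3.58.1, quantile normalization with a t statistic). The share was also taken with the 50 largest genes out of the denominator alone, or with pseudogenes added. Thinning before the fit and leaving a tumor out of the share were added after seeing the data. The 3 tumors a group and totals of 8468914 to 24441522 counts limit the precision. Some members are not reported here by name.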

Additional observations from a re-analysis of the deposited data

How the results depend on the processing

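The difference in ribosomal protein mRNAs was small, and no member passed adjustment in any of the 16 alternatives. The median log2 fold change of the members stayed below 0 in all of them, between -0.14 and -0.13 across scalings, filters, tests and thinning and between -0.17 and -0.11 with each tumor left out. The members with every SS tumor below every control numbered 27 to 34, and 28 to 38 with each tumor left out, when more genes of any kind are separate. Those lower at an unadjusted p under 0.05 numbered 14 to 20, and 7 to 14 with each tumor left out. Those higher at an unadjusted p under 0.05 numbered 0 with quantile normalization and 0 with thinned libraries, and 0 to 4 with each tumor left out. Those with every SS tumor above every control numbered 2 with thinned libraries and 1 to 6 with each tumor left out. DESeq2 called 35 of all genes after adjustment. The share of counts, SS minus control, was -0.422 percentage points with pseudogene symbols added, and -0.511 to -0.296 with each tumor left out. With the 50 largest genes, 3 members among them, out of the denominator alone, the difference was -0.573 percentage points. The control mean then stood at 5.53%, and the relative change was -10.4%, against -11.2% in the main setting. The cause of these changes was not tested, other than fewer tumors.

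Same-numbered control and SS tumors came from different mice, and their deviations correlated by 0.12, 0.02 and 0.08, so the numbers were not taken to pair the tumors. With a replicate block the members lower at an unadjusted p under 0.05 numbered 14, those higher 1, and the median was -0.14. Under that block the log2 fold change was 0.0077 for Rps27l and 0.015 for Rpl7l1, and no other of the 62 named genes followed changed sign.

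Of the 62 named genes followed through the alternatives, 14 changed sign under some alternative, and none of the 14 was called in any. Rpl30, Rps3, Rps3a1, Rps20, Rpl4, Rpl19, Rpl26, Rpl27a, Rpl31 and Snhg8 were not followed. With each tumor left out, the log2 fold change ran from -0.015 to 0.46 for Rplp2, -0.078 to 0.12 for Rpl11, -0.0050 to 0.11 for Rps19, -0.36 to 1.23 for Rpl3l, -0.25 to 0.36 for Rps27l, -0.12 to 0.050 for Rpl32l and -0.12 to 0.031 for Rpl36al. It ran from -0.17 to 0.14 for Rpl36a, -0.18 to 0.10 for Rpl7l1, -0.022 to 0.28 for Rps27, -0.028 to 0.27 for Rps27rt, -0.010 to 0.11 for Fbl, -0.018 to 0.24 for Hnrnpa1 and -0.43 to 0.095 for Rps6kc1. With limma-voom it was -0.86 for Rpl3l and 0.16 for Rps27l, with quantile normalization -0.18 for Rpl3l and 0.0088 for Rpl7l1, and with thinned libraries 0.0041 for Rpl7l1.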
